A study of Mus musculus with 13 samples.

Results

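Potassium channel genes were described here as every gene in the deposited count tables whose symbol starts with Kcn, leaving out Kcnj10, Kcnq1ot1 and symbols ending in os. This rule gave 95 members of 32285 listed genes. By symbol they fell into 11 Kv1 genes (Kcna and the beta subunits Kcnab), 12 of the Kv2 group (Kcnb and the electrically silent subunits Kcnf, Kcng, Kcns and Kcnv), 4 Kv3 genes (Kcnc), 7 of the Kv4 group (Kcnd and the Kcnip calcium sensors), 10 of the Kv7 group (Kcnq and the Kcne subunits), 8 Kcnh genes, 12 calcium- or sodium-activated genes (Kcnma, Kcnmb, Kcnn, Kcnt, Kcnu), 14 inward rectifiers (Kcnj) and 14 two-pore genes (Kcnk). The label "potassium channel" did not cover all of them. Kcnrg, a soluble regulator of channel assembly, and Kcnmb4os1 and Kcnmb4os2, transcripts named as antisense to a BK beta subunit, form no pore.

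Nuclei came from whole frozen hippocampus of 13 female mice of the C3B6F1 hybrid strain (spelled C3HB6F1 in the sample labels), with 1 droplet library per mouse. Young animals fed ad libitum were 5 months old (n = 3). Old animals were 24 months old and were fed ad libitum (n = 3), restricted in diet from 20 months of age, called acute restriction (n = 3), or restricted from 5 months of age, called long-term restriction (n = 4). The labels name no transgene, and every animal was female, so nothing here bears on males. The libraries held 3524 to 12368 barcodes and 38546292 to 80538090 unique molecular identifiers (UMIs, counts of single captured RNA molecules) each.

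Potassium channels let potassium ions leave or enter cells along their gradient and so set the resting potential, the shape of the action potential and the firing rate. Kv channels open on depolarization: Kv1 channels sit along axons, Kv3 channels allow fast spiking, Kv4 channels with Kcnip subunits carry the A-type current of dendrites, and Kv7 channels carry the M-current that dampens repetitive firing. BK and SK channels (Kcnma1, Kcnn) respond to calcium, inward rectifiers and two-pore channels act near rest, and glial channels help to clear potassium released by active neurons.

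After removal of likely doublets 98041 nuclei remained, of which 78341 lay in clusters named by fixed marker genes and 19700 stayed unnamed. No Kcn gene was used to build or name a cluster. The 14 resulting classes are granule-like (34856 nuclei), oligodendrocyte-like (10028), astrocyte-like (7447), CA1-like (6201), inhibitory-like (5689), subicular or cortical excitatory-like (4968), precursor-like (oligodendrocyte precursors or OPCs, 2831), CA3-like (2334), microglia-like (1809), fibroblast-like (776), Cajal-Retzius-like (363), endothelial-like (359), mossy-like (345) and mural-like (335). They are written below without "-like". Levels between classes are UMI counts scaled to the total of that class in 1 mouse on the usual CPM scale, and a class entered for a mouse with at least 20 nuclei. In droplet libraries free RNA adds some UMIs to every nucleus. Kcnip4, most abundant in neurons, still averaged 3009 ± 1976 CPM (SD, n = 8 mice) in endothelial nuclei and 504 ± 320 CPM (n = 13) in astrocytes. A low level of a neuronal member in a glial or vascular class is therefore not read as expression there.

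Members together took a median of 2.96% of all UMIs in CA1 neurons (range over mice 2.46% to 3.36%) and 2.80% in granule neurons (2.18% to 2.93%). The median was 1.74% in inhibitory neurons and 1.26% in OPCs. It was 0.422% in astrocytes, 0.418% in oligodendrocytes and 0.305% in microglia. Thus neuronal classes held the larger shares, and OPCs, which carry voltage-gated channels and receive synapses, stood between neurons and the other glia. Of the 95 members, 73 were abundant enough for the condition tests in at least 1 of 10 classes, 22 were tested in none, and 9 were tested in all 10.

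The 22 members tested in none of the classes held 0 to 176 UMIs each over all class sums. They were the Kv1 genes Kcna3, Kcna5, Kcna7 and Kcna10, the silent subunit gene Kcng4, the beta subunit genes Kcne1, Kcne1l, Kcne2, Kcne3 and Kcne4, the calcium-activated genes Kcnmb1, Kcnmb3 and Kcnn4, the inward rectifiers Kcnj1, Kcnj5, Kcnj8, Kcnj14 and Kcnj15, the two-pore genes Kcnk15, Kcnk16 and Kcnk18, and the antisense Kcnmb4os1. Kcnk16 had no UMI at all, and Kcnj8 had the most. For these genes no statement on age or diet could be made at this depth.

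**Figure D1:**
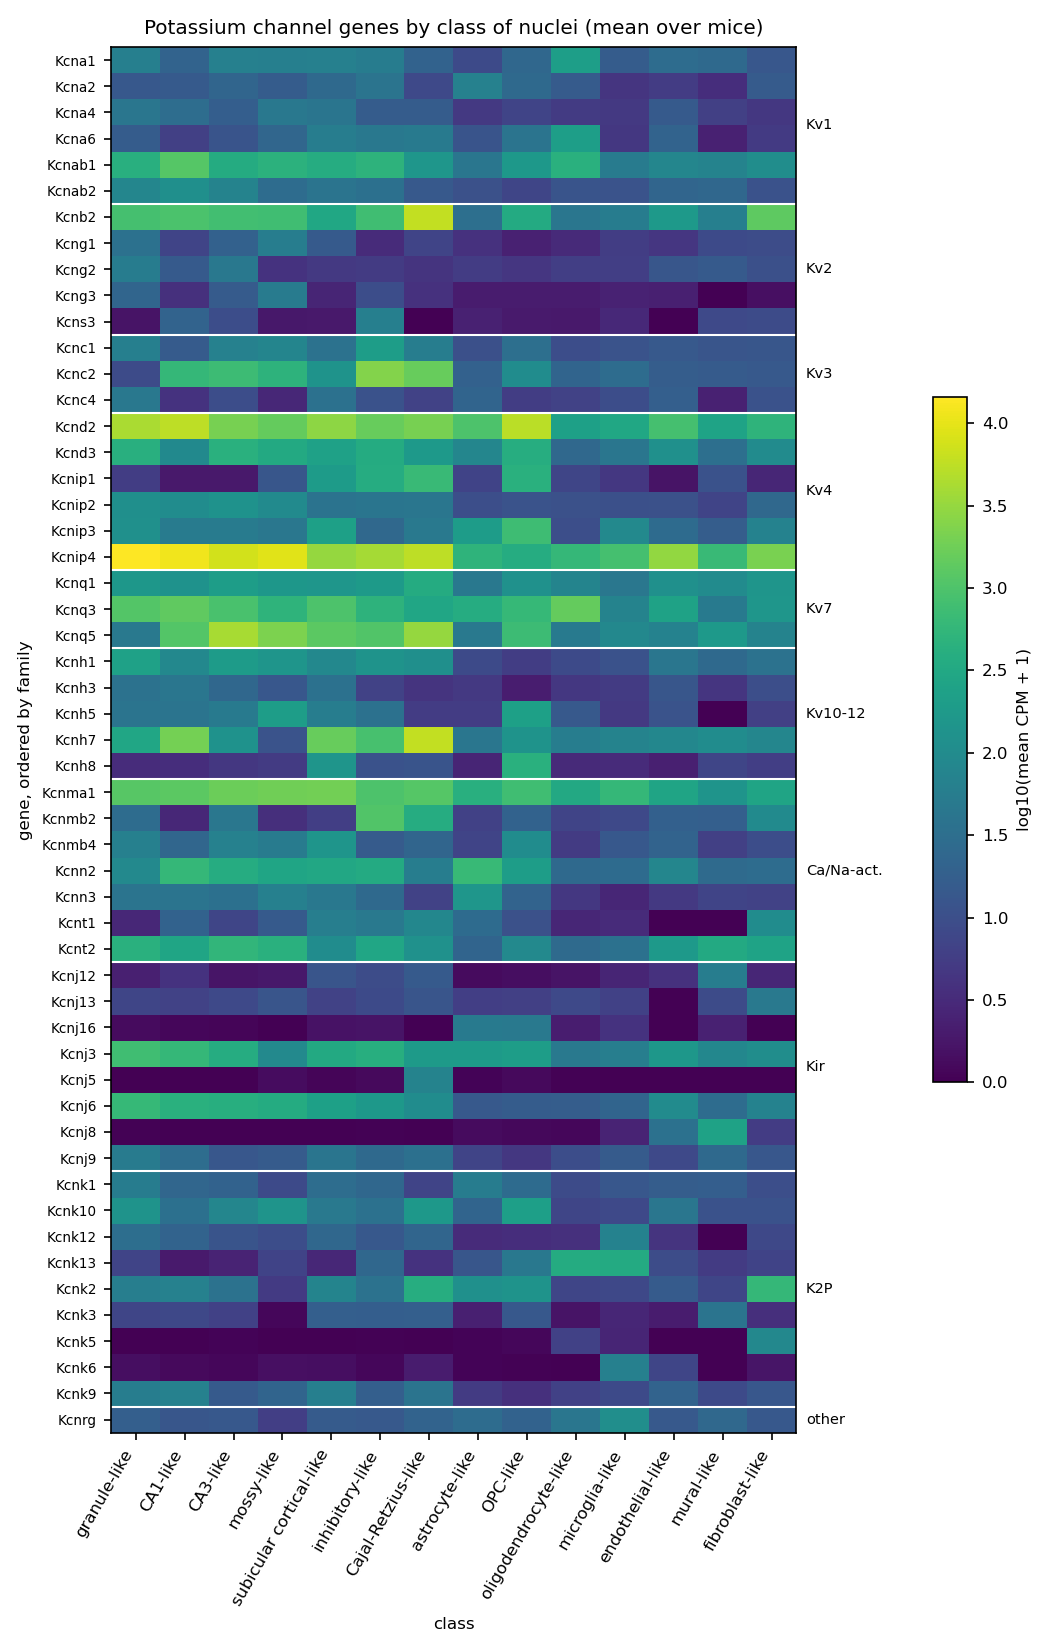
Mean level of 53 members that reached at least 20 CPM in 1 class or more, shown as log10(mean CPM + 1) over mice, with genes in rows grouped by family and the 14 marker-defined classes in columns. Kcnip4 is high in granule and CA1 neurons, and Kcnmb2 stands out in inhibitory neurons, as Kcnh8 does in OPCs.

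Among Kv1 genes, 2 were highest in oligodendrocytes. Kcna1, which encodes a low-threshold axonal Kv1 subunit, ranged from 149 to 311 CPM there (median 201, n = 13 mice), and in subicular or cortical neurons, the next class, from 52.1 to 81.8 CPM. Kcna6, another Kv1 pore subunit, averaged 213 ± 24.4 CPM (SD, n = 13) in oligodendrocytes and 50.3 ± 36.2 CPM (n = 8) in Cajal-Retzius cells, the next class by log2 level. No mouse overlapped between those classes for either gene. Kcnab1, a beta subunit that adds fast inactivation to Kv1 channels, stood highest in CA1 neurons with 1153 ± 116 CPM (range 946 to 1288), above inhibitory neurons with 494 ± 65.3 CPM (356 to 585). Kcna2, another axonal subunit, was highest in astrocytes at 66.9 ± 17.1 CPM, but its range of 40.7 to 90 CPM overlapped that of inhibitory neurons (26.8 to 61.9 CPM).

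The Kv3 genes marked inhibitory neurons and separated their subtypes. Kcnc1 averaged 205 ± 32.4 CPM (152 to 258, n = 13) in inhibitory neurons against 78.1 ± 14.2 CPM (49 to 92.7, n = 8) in mossy cells, with no overlap. Kcnc2 reached 2439 ± 321 CPM in inhibitory neurons, where the Cajal-Retzius range (254 to 2046 CPM) still overlapped it, and averaged 7.83 CPM in granule neurons, the lowest of all classes. Kcnc4, in contrast, averaged 45.1 ± 6.68 CPM in granule neurons and 34.8 ± 6.11 CPM in subicular or cortical neurons.

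Of the Kv4 group, Kcnip4 was highest in granule neurons (14384 ± 1349 CPM) and CA1 neurons (11691 ± 1519 CPM), whose mice overlapped. Kcnd2, the dendritic A-type pore subunit, was at similar levels in CA1 neurons (5494 ± 572 CPM) and OPCs (5280 ± 596 CPM). These classes did not differ beyond the spread of their mice, and granule neurons followed with 4319 ± 483 CPM. Kcnip3, a calcium sensor also known as DREAM or calsenilin, was an OPC transcript with 739 ± 292 CPM (471 to 1360), above subicular or cortical neurons at 227 ± 27.3 CPM (186 to 268).

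Kv7 genes divided between glia and neurons in another way. Kcnq3, an M-channel subunit, was at 1494 ± 290 CPM in oligodendrocytes and 1413 ± 193 CPM in CA1 neurons, and these did not separate. Kcnq5 was at 4054 ± 891 CPM in CA3 neurons and at 47.1 ± 9.64 CPM in granule neurons, the lowest class. Oligodendrocytes held 51.1 ± 34.4 CPM of Kcnq5.

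In the Kcnh group, Kcnh8, an Elk-type channel gene, was highest in OPCs (440 ± 49.1 CPM, range 337 to 514) ahead of subicular or cortical neurons (145 ± 50.5 CPM, 64.2 to 245). Kcnh7, an Erg-type gene, averaged 5946 ± 2053 CPM in Cajal-Retzius cells and 1957 ± 369 CPM in CA1 neurons, and 10.4 CPM in mossy cells. The lowest Cajal-Retzius mouse, at 1591 CPM, fell within the CA1 range. Kcnb2, a delayed rectifier, was also highest in Cajal-Retzius cells at 6075 ± 2187 CPM. Kcnb2 was singled out after its values were seen. The same mouse, replicate 2 of acute restriction, gave a Kcnd2 level of 12675 CPM in Cajal-Retzius cells where the median of the class was 506 CPM, so its 36 nuclei stood apart from the other 7 mice. Without it the Cajal-Retzius means were 6568 ± 1143 CPM for Kcnh7 (lowest mouse 4764), 6733 ± 1241 CPM for Kcnb2 and 468 ± 308 CPM for Kcnd2.

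Calcium-activated genes also split by class. Kcnmb2, a BK beta subunit that inactivates the channel, averaged 1065 ± 128 CPM (862 to 1288) in inhibitory neurons and 373 ± 117 CPM (201 to 499) in Cajal-Retzius cells. Its pore partner Kcnma1 was broad, from 1878 ± 280 CPM in subicular or cortical neurons to 139 ± 98 CPM in mural cells, with neighbours in that order overlapping throughout. Kcnn3, an SK channel, was highest in astrocytes with 150 ± 22.9 CPM (116 to 203), and mossy cells were next with 62.7 ± 23.7 CPM (28.1 to 104). Kcnn2, another SK channel, averaged 644 ± 168 CPM in astrocytes and 590 ± 104 CPM in CA1 neurons, with overlap. In granule neurons Kcnn2 was at 90.2 ± 11 CPM.

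Inward rectifiers and two-pore genes included vascular and glial members. Kcnj8, the pore of the vascular KATP channel, averaged 252 ± 130 CPM in mural cells (94 to 503, n = 7) against 34.7 ± 32.8 CPM in endothelial cells (0 to 86.9), a value that rests on 105 UMIs. Kcnj16, a subunit that joins Kcnj10 in glial channels, was at 49.2 ± 11.9 CPM in astrocytes and 46.7 ± 14.1 CPM in OPCs, with no overlap between OPCs and the next class, microglia (3.09 ± 6.34 CPM). Kcnj3 and Kcnj6, which form G protein-gated channels, were highest in granule neurons (761 ± 87.6 and 605 ± 29.3 CPM). For Kcnj6 the granule mice did not overlap CA1 mice (437 ± 29 CPM), and for Kcnj3 they did (582 ± 67.2 CPM). Among two-pore genes, Kcnk2 averaged 587 ± 215 CPM in fibroblasts, overlapping Cajal-Retzius cells (395 ± 137 CPM). Singled out after their values were seen, Kcnk6 was at 64.7 ± 18.7 CPM in microglia (163 UMIs) with no more than 6.53 CPM in any other class, and Kcnk13 was at 361 ± 74.6 CPM in oligodendrocytes and 351 ± 87.5 CPM in microglia.

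Within inhibitory neurons, sub-clusters named by markers were compared as a description without a test. Kcnc2, the Kv3 gene of fast-spiking cells, ranged from 3495 to 5781 CPM in Pvalb nuclei (median 4914, n = 13) and averaged 3140 ± 518 CPM in Sst, 2354 ± 518 CPM in Vip, 1812 ± 393 CPM in Cnr1 and 722 ± 95.4 CPM in Lamp5 nuclei. Pvalb nuclei also held the most Kcnc1 (392 ± 53.6 CPM, range 298 to 481), and no other subtype averaged above 187 CPM. Kcna1 averaged 102 ± 35.1 CPM and the beta subunit gene Kcnab3 33.2 ± 9.11 CPM in Pvalb nuclei, each above the averages of the other subtypes.

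Kcnq5 ran the other way. Its mean was 4015 ± 718 CPM in Cnr1 nuclei (n = 8), 1723 ± 193 CPM in Vip and 1298 ± 237 CPM in Lamp5 nuclei, and 262 ± 49.7 CPM in Pvalb nuclei. Kcnt2, a sodium-activated channel, averaged 1276 ± 156 CPM in Vip nuclei and 28.5 ± 9.98 CPM in Pvalb nuclei. Kcnip4 reached 10028 ± 1121 CPM in Vip nuclei against 1127 ± 492 CPM in Sst nuclei. Sst nuclei instead had the highest Kcnd2 (2603 ± 449 CPM), and Kcns3, a silent subunit, was highest in Lamp5 (137 ± 27.1 CPM) and lowest in Vip nuclei (2.9 ± 3.45 CPM). Kcnmb2 stayed between 888 and 1364 CPM on average in all 5 subtypes.

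**Figure D2:**
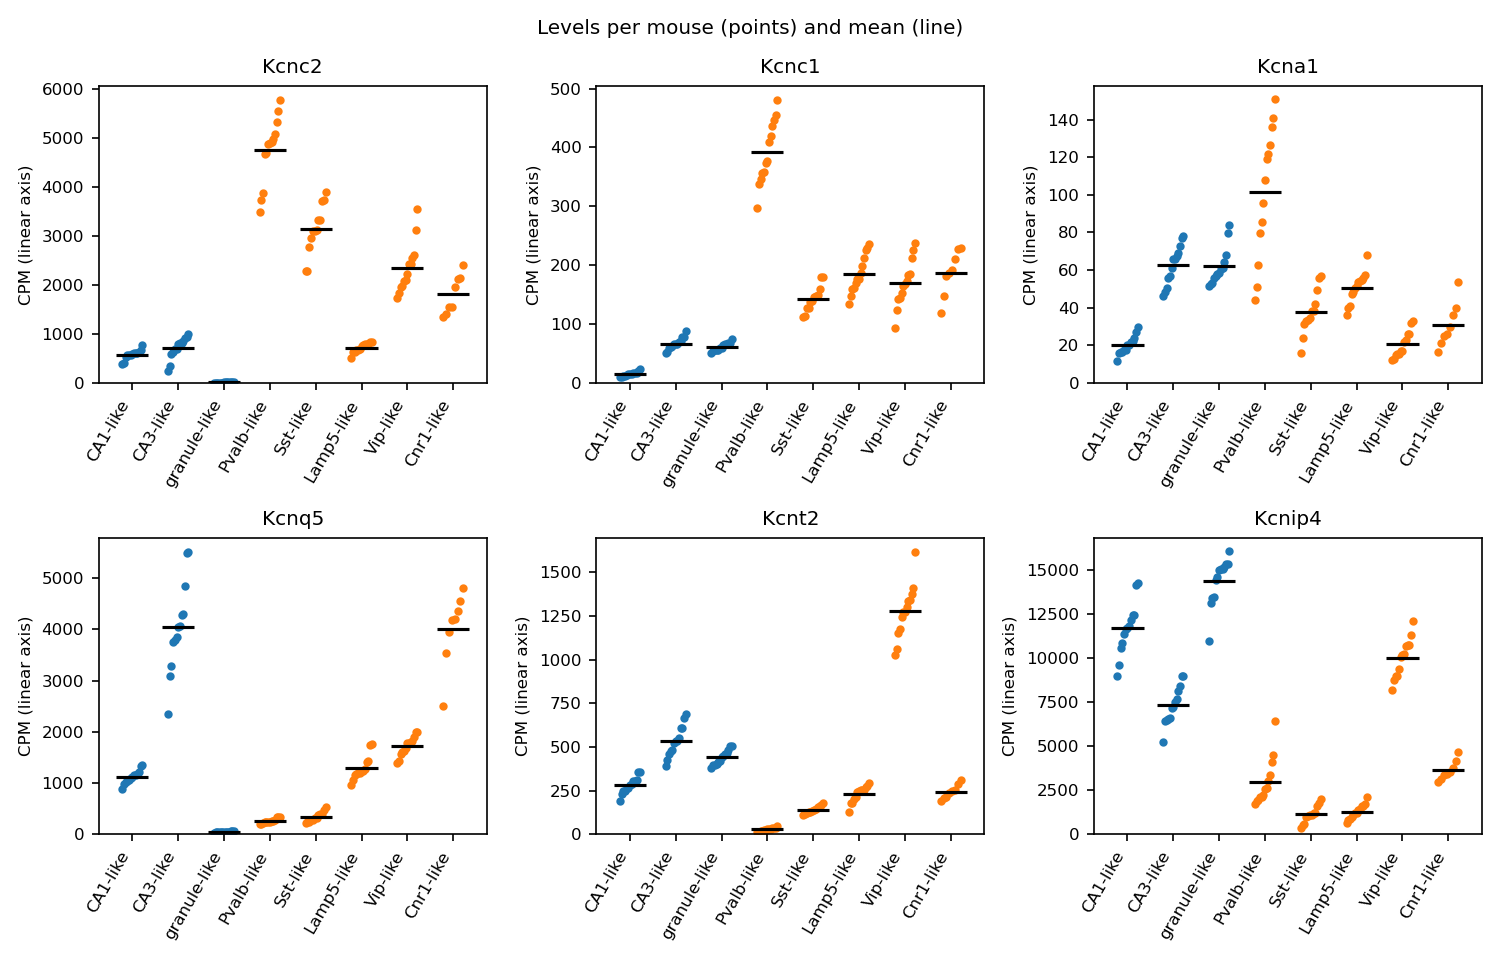
Level in CPM on a linear axis of Kcnc2, Kcnc1, Kcna1, Kcnq5, Kcnt2 and Kcnip4 in 3 excitatory classes (blue) and 5 inhibitory subtypes (orange), each point a mouse and each line a mean. Kcnc2 and Kcnc1 are highest in Pvalb nuclei, and Kcnq5 is high in CA3 and Cnr1 nuclei and low in granule and Pvalb nuclei.

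Classes were then compared by test, within mice, on the 71 members that passed the filter for low counts in that fit. A call needed an adjusted p below 0.05 and a change of at least 2-fold, that is a log2 fold change of at least 1 in size. Granule neurons differed from CA1 neurons in 32 members (23 higher, 9 lower). Over all 15468 genes tested 18.1% were called (9.63% higher, 8.5% lower), a share that includes genes used to build the clusters. Among the Kv3 genes, Kcnc2 was lower in granule neurons (log2 fold change -6.25 ± 0.18 SE, edgeR quasi-likelihood adjusted p = 6.1e-57) and Kcnc4 (3.84 ± 0.10) and Kcnc1 (2.01 ± 0.08) were higher. Granule neurons were also lower in Kcns3 (-4.84), Kcnq5 (-4.61), Kcnt1 (-3.30), Kcnh7 (-2.80) and the SK gene Kcnn2 (-2.73). They were higher in Kcnmb2 (3.93), the silent subunit Kcng3 (2.96) and the A-type gene Kcnd3 (2.19).

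CA3 neurons differed from CA1 neurons in 32 members (17 higher, 15 lower), where 13.9% of all genes were called (8.78% higher, 5.14% lower). Kcnh7 (log2 fold change -4.19 ± 0.17 SE), the two-pore gene Kcnk9 (-2.26 ± 0.11), Kcnab1 (-1.80 ± 0.11) and Kcnd2 (-1.56 ± 0.22) were lower in CA3. Kcnmb2 (4.54 ± 0.25), Kcnd3 (2.15 ± 0.10), Kcnc1 (2.08 ± 0.09) and Kcnq5 (1.74 ± 0.15) were higher. This comparison and that of granule neurons use the same CA1 samples, so likeness between them is no separate result.

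Inhibitory neurons differed from CA1 neurons in 40 members (22 higher, 18 lower), beside 24.3% of all genes (15.3% higher, 8.99% lower). The largest differences were in Kcnmb2 (9.09 ± 0.21) and the calcium sensor Kcnip1 (8.84 ± 0.23), both higher in inhibitory neurons. All 7 Kv1 genes tested were called, and 4 of them were higher: Kcna6 (2.92), Kcnab3 (1.80), Kcna2 (1.29) and Kcna1 (1.26). Among the lower members were Kcnh3 (-3.04 ± 0.09), Kcnd2 (-1.97 ± 0.22), Kcnip4 (-1.75 ± 0.19) and Kcnq3 (-1.75 ± 0.10).

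OPCs and mature oligodendrocytes, which belong to 1 lineage, differed in 47 members (35 higher and 12 lower in OPCs), beside 31.1% of all genes (19.1% higher, 12% lower). Of 10 calcium- or sodium-activated genes tested 9 were higher in OPCs, and so were 5 of 7 in the Kv4 group. The largest were Kcnh8 (7.48 ± 0.20), Kcnip1 (6.69 ± 0.23), Kcnip3 (6.51 ± 0.17), Kcnj16 (5.34 ± 0.24) and the two-pore gene Kcnk10 (4.94 ± 0.15). Lower in OPCs were Kcnk5 (-5.48 ± 0.62), Kcna1 (-3.21 ± 0.11), Kcnj2 (-3.10 ± 0.37), Kcnk13 (-2.96 ± 0.11), Kcna6 (-2.41 ± 0.10) and Kcnq3 (-1.24 ± 0.11). Astrocytes differed from oligodendrocytes in 26 members (17 higher, 9 lower), beside 31.4% of all genes (18.8% higher, 12.5% lower). Kcnj16 (5.46), Kcnn3 (5.42), Kcnip3 (4.63), Kcnn2 (4.62) and Kcnk2 (4.21) were higher in astrocytes, and Kcnk13 (-5.00), Kcna1 (-4.79) and Kcna6 (-4.33) were lower.

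**Figure D3:**
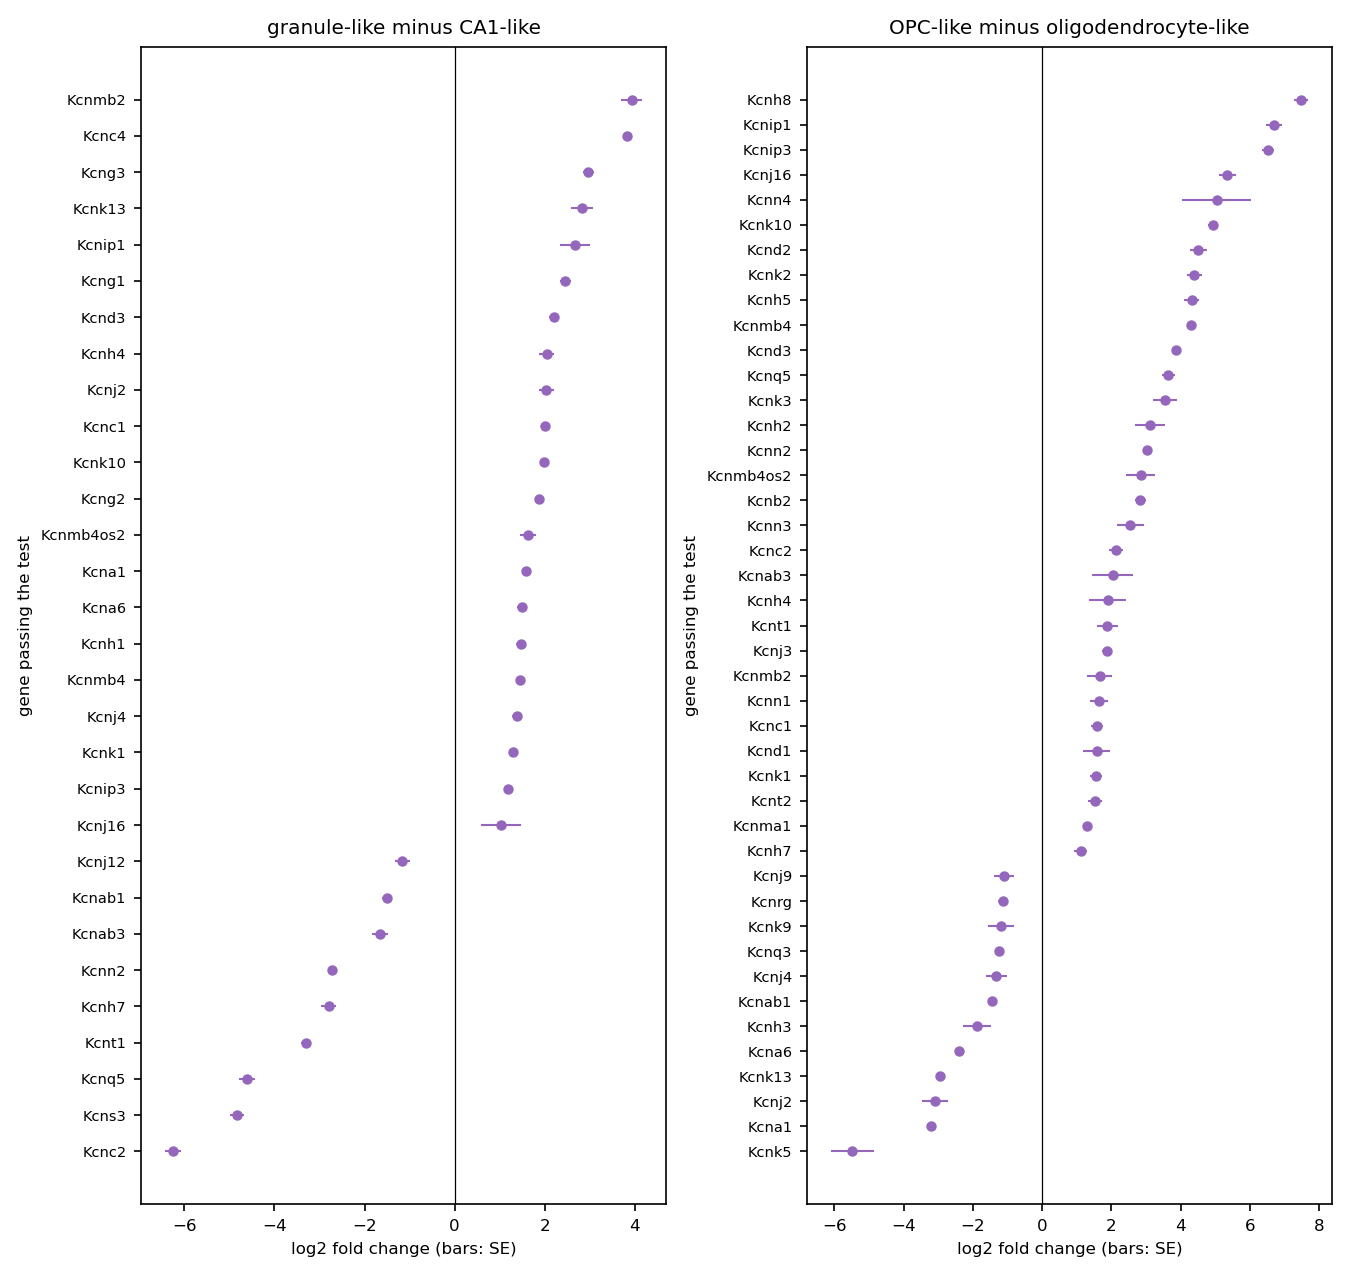
Log2 fold change ± SE of 30 members called between granule and CA1 neurons (left) and 43 called between OPCs and oligodendrocytes (right). Positive values are higher in granule neurons or in OPCs, and the outermost points are Kcnc2 and Kcnmb2 on the left and Kcnk5 and Kcnh8 on the right.

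Old and young mice fed ad libitum were compared to ask how age alters these genes in each class. A member in a class is called a pair below, and 461 pairs of 73 members were tested. Old mice had more Kcnma1 RNA in granule neurons, oligodendrocytes and OPCs, and less Kcnrg in oligodendrocytes and microglia. Kcnq3 was higher in granule neurons and oligodendrocytes. It was also called in microglia, on 4 UMIs in young and 58 in old mice and with overlap. In all, 18 pairs from 12 members were called by edgeR (14 higher, 4 lower), beside 1.56% of the 105450 gene and class pairs tested (0.838% higher, 0.725% lower). The calls lay in granule neurons (6 of 71 tested, background 3.81%), oligodendrocytes (5 of 45, 6.28%), microglia (4 of 14, 1.85%) and OPCs (3 of 38, 1.98%). No pair was called in the other 6 classes, in which at most 0.358% of all genes were called (astrocytes 0.358%, inhibitory neurons 0.0728%, the others 0%). That holds for the edgeR fit described here: DESeq2 called 16 pairs in 5 of these 6 classes, 6 of them in CA1 neurons, and edgeR with a term for libraries numbered 1 also called 16 pairs in 5 of them, 7 in CA1 neurons. Over all 461 pairs 120 had an unadjusted p below 0.05 (26.0%), 90 of them higher in old mice, where 18.9% of all gene and class pairs had one (9.27% with a higher value in old mice). The median log2 fold change of members was 0.157 in granule neurons, where that of all genes was -0.045, and 0.316 in oligodendrocytes, where that of all genes was -0.015.

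Single libraries weighed on this count. Without replicate 2 of the young group 1 pair was called, without replicate 2 of the old ad libitum group 2, without its replicate 4 5, and without replicate 3 of the young group 10. Without replicate 1 of the young group 31 pairs were called, and 63 without the 4 libraries numbered 1. No named pair changed its sign under any of these.

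Median UMIs per nucleus moved with age as well. They did not overlap between young and old mice fed ad libitum in granule neurons (3801 to 6349.5 against 6966.5 to 12767), oligodendrocytes (1181 to 1661 against 1988 to 3144), OPCs (1907 to 2841 against 3402 to 5999) or microglia (921.5 to 1311 against 1440 to 2346.5). With that median as a covariate 3 pairs were called, and 2 of the 18 were among them, Kcnq5 and Kcnq3 in microglia. The members that rose span 45.3 kb (Kcnk9) to 1135.4 kb (Kcnip4), and those that fell span 5.4 kb (Kcnrg), 8.4 kb (Kcnj13) and 320.7 kb (Kcnq1). Across members the log2 fold change and the genomic span of the gene had a Spearman rho of 0.033 in CA1 neurons (58 genes), 0.402 in granule neurons (71 genes), 0.443 in OPCs (38 genes), 0.469 in oligodendrocytes (45 genes) and 0.714 in microglia (14 genes), and between 0.363 and 0.57 in the other 5 classes, as a description over genes that share libraries. With the trend over gene length in all genes removed 5 pairs were called, 4 of them among the 18: Kcnj13 and Kcnq1 in oligodendrocytes and Kcnip4 and Kcnq3 in microglia. Depth and age cannot be told apart in these classes. Sums of markers of other cell types moved with age too. Of 17 such lists, those without overlap between young and old mice were 8 in granule neurons (6 higher and 2 lower in old mice), 4 in OPCs (all higher), 4 in oligodendrocytes (3 higher, 1 lower) and 3 in microglia (all higher). The CA3 list was higher in the first 3 of these classes, at 359 to 482 CPM in young and 532 to 544 CPM in old granule neurons, and the OPC, astrocyte, mossy, oligodendrocyte and subicular or cortical lists were higher in granule neurons too. The granule, subicular or cortical and oligodendrocyte lists were higher in OPCs, the second of them at 1509 to 1521 and 1851 to 1995 CPM. The granule list, at 3693 to 4626 and 4822 to 5008 CPM, and the Cajal-Retzius list were higher in oligodendrocytes. Lower lists were mural and fibroblast in granule neurons and mural in oligodendrocytes. The lists are not specific to their cell type in every class. In young OPCs the inhibitory list was at 5471 to 7071 CPM, beside 14544 to 16442 CPM for the OPC list. Such a sum can hold RNA of the class itself, and it does not separate that from RNA of other cells. The part of these lists in the results was not tested.

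**Figure D4:**
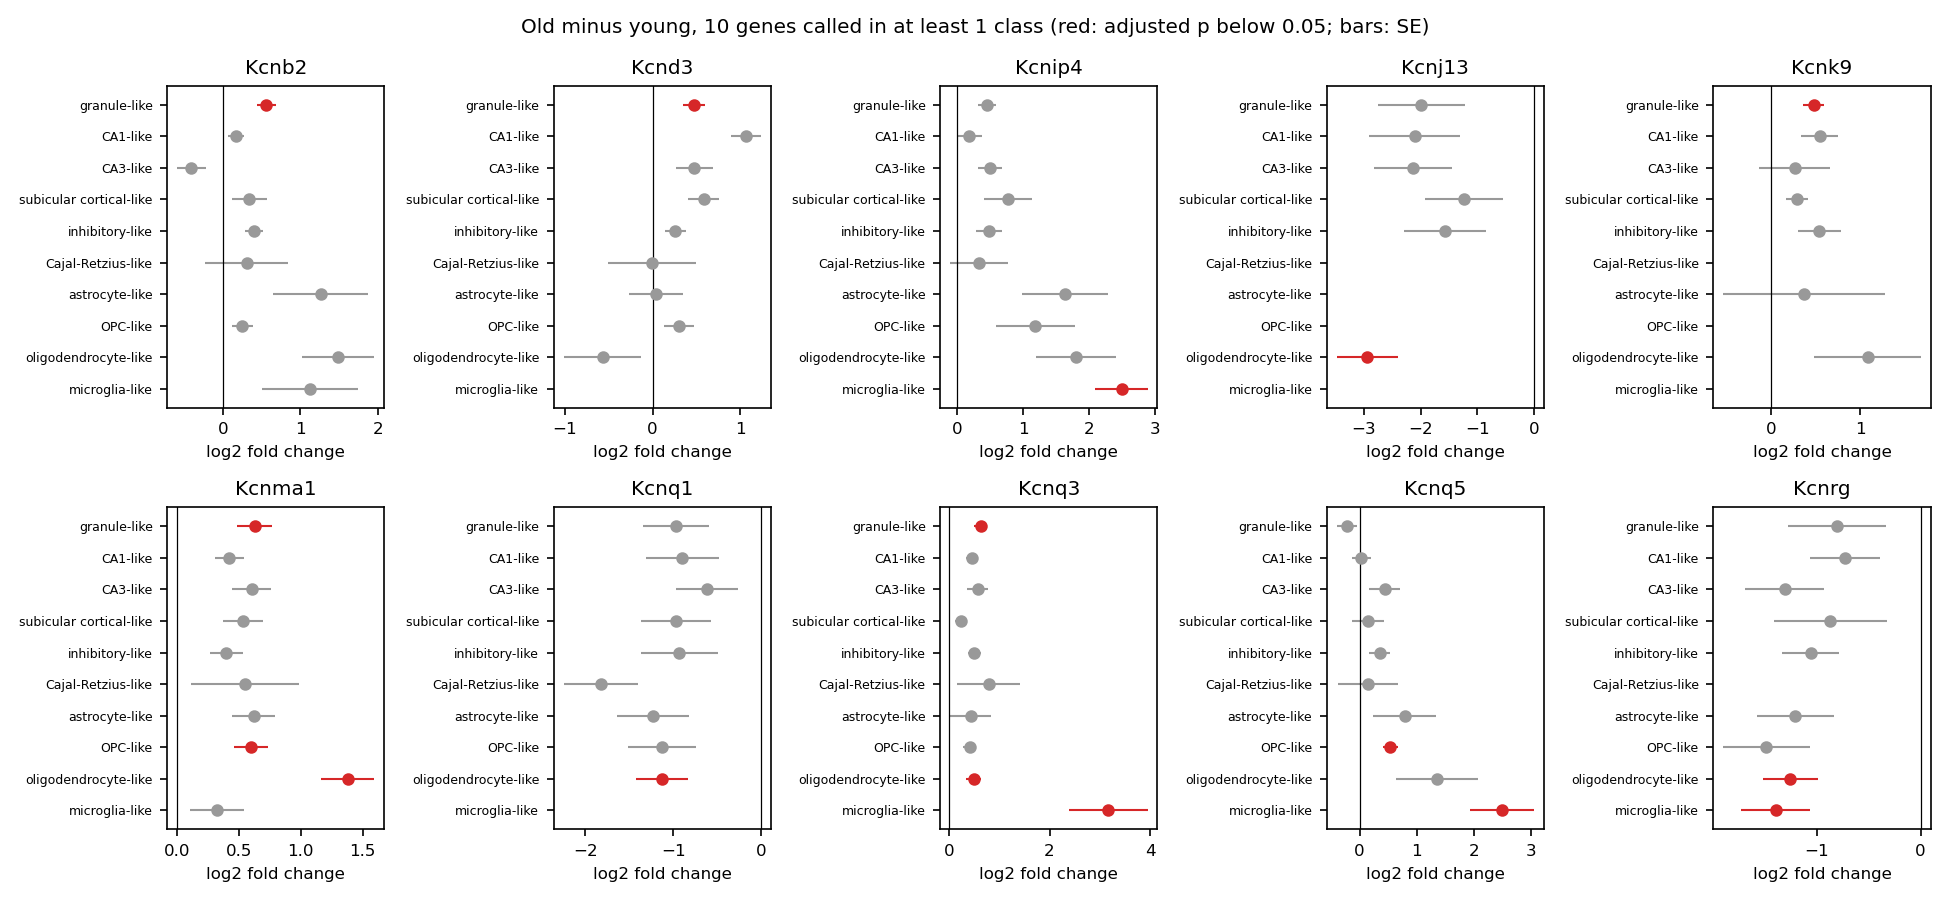
Log2 fold change ± SE, old minus young mice fed ad libitum, of 10 of the 12 members called in at least 1 class, each over the 10 classes tested, with red points for adjusted p below 0.05. Kcnma1, Kcnq3 and Kcnip4 lie above 0 in all 10 classes, and Kcnrg and Kcnq1 lie below 0 in the 9 classes that tested them. The classes are sums from the same mice, so a shared sign is not repeated evidence.

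Kcnma1 (725.1 kb, chr14:23289431-24014491, minus strand, build GRCm38), the BK pore, was the clearest member by adjusted p. Condition values are CPM after TMM scaling within a class. In oligodendrocytes the young mice had 154, 81.4 and 133 CPM and the old ad libitum mice 312, 293 and 282 CPM, a log2 fold change of 1.38 ± 0.22 SE (adjusted p = 0.000689). The groups did not overlap, although the young value of 154 rests on 15 UMIs from 47 nuclei. Kcnma1 in OPCs went from 511, 508 and 588 CPM in young to 827, 837 and 770 CPM in old mice (0.60 ± 0.14, adjusted p = 0.0192). In granule neurons it went from 874, 781 and 968 to 1252, 1370 and 1427 CPM (0.63 ± 0.14, adjusted p = 0.0398). Each of these sets was without overlap. Kcnma1 had a positive fold change in all 10 classes, between 0.32 in microglia and 1.38 in oligodendrocytes. All classes are sums from the same mice, so a sign shared between them is not repeated evidence. A test of whether Kcnma1 changed more in oligodendrocytes than in granule neurons did not pass (limma difference -0.74 ± 0.22, adjusted p = 0.49).

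In the Kv7 group 8 of 42 pairs were called (7 higher and 1 lower), beside 1.56% of all pairs. None of the pairs tested was of a Kcne subunit. The higher pairs include Kcnq3 and Kcnq5 in microglia, on 4 and 9 UMIs in young mice, which are not read as expression there. In granule neurons Kcnq3 was at 885, 762 and 730 CPM in young and 1253, 1226 and 1194 CPM in old mice (log2 fold change 0.63 ± 0.12, adjusted p = 0.0264). Fitted within each of the 3 granule clusters, Kcnq3 was called in all of them with 0.70, 0.67 and 0.68. The makeup of the class also differed, as 1 granule cluster held 54.9% to 80.7% of granule nuclei in young mice and 5.44% to 10% in old ad libitum mice. In oligodendrocytes Kcnq3 went from 1023, 1103 and 1501 to 1888, 1666 and 1645 CPM (0.49 ± 0.15, adjusted p = 0.0493), again without overlap.

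Kcnq5 in OPCs, at 571, 376 and 586 CPM in young mice, was at 735, 771 and 722 CPM in old ones (0.53 ± 0.14, adjusted p = 0.0355). Kcnq1, the Kv7 gene known from heart and epithelia, was lower in oligodendrocytes (-1.13 ± 0.29, adjusted p = 0.0335), but its groups overlapped, with 30.7, 154 and 106 CPM in young and 23.6, 55.6 and 63.4 CPM in old mice. Kcnq1 shares its locus with the antisense RNA Kcnq1ot1, and the use of strand in counting is not given in the sources used here.

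In granule neurons 3 further members rose. Kcnb2 went from 634, 667 and 800 CPM to 993, 1023 and 1078 CPM (0.56 ± 0.13, adjusted p = 0.038). The A-type gene Kcnd3 went from 315, 331 and 376 to 471, 456 and 488 CPM (0.47 ± 0.12, adjusted p = 0.0496). Kcnk9, the TASK-type two-pore gene, went from 49.6, 43.9 and 45.6 to 70.7, 58.3 and 65.1 CPM (0.48 ± 0.12, adjusted p = 0.0463). None of the 3 overlapped in granule neurons. The Kcnd3 estimate was larger in CA1 neurons (1.06 ± 0.17), where this fit did not call it. Fitted within single granule clusters, Kcnk9 was called in 1 of 3, and Kcnb2, Kcnd3 and Kcnma1 in none (Kcnma1 0.44 to 0.54, with adjusted p from 0.0534 to 0.0844).

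In microglia, Kcnip4 was at 155, 362 and 370 CPM in young and 1486, 2066 and 2083 CPM in old mice (2.49 ± 0.40, adjusted p = 0.0143). The young value of 155 rests on 4 UMIs from 23 nuclei. A rise was not particular to microglia among glia. The Kcnip4 estimate was also positive in oligodendrocytes (1.80 ± 0.61), astrocytes (1.63 ± 0.65) and OPCs (1.19 ± 0.60), though this fit called none of these. The microglial mean of Kcnip4 over all 13 mice, 867 ± 535 CPM without TMM scaling, lay below those of endothelial nuclei and fibroblasts. The 3 lists that were higher in the microglia of old mice were those of OPCs, oligodendrocytes and fibroblasts. The OPC list was at 34.1 to 86.7 CPM in young and 155 to 248 CPM in old mice, the oligodendrocyte list at 136 to 241 and 345 to 389 CPM, and the fibroblast list at 68.9 to 102 and 110 to 227 CPM. The inhibitory list, at 0 to 60.8 and 42.1 to 220 CPM with Slc32a1 at 0 in both groups, and the granule list, at 2388 to 2968 and 2451 to 3000 CPM, overlapped. As said above for OPCs, such sums can hold RNA of the class itself. The part of these lists in the results for microglia was not tested. Levels of Kcnq5 (9 UMIs in young, 75 in old mice) and Kcnq3 (4 and 58 UMIs) were also higher in the microglia of old mice, by 2.50 ± 0.56 and 3.17 ± 0.78. Kcnq3 overlapped between groups, and 1 old mouse held 1 UMI of it. Kcnip4, Kcnq5 and Kcnq3 were each far higher in CA1 neurons. By the rule given above, their levels in microglia are not read as expression there.

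Kcnrg, a 5.4 kb gene at chr14:61607457-61612826 (plus strand), fell by 1.26 ± 0.26 on the log2 scale in oligodendrocytes (adjusted p = 0.00406). Young mice had 51.2, 80.3 and 45.3 CPM and old ad libitum mice 20.6, 24.1 and 28.6 CPM. In microglia it fell by 1.40 ± 0.33 (adjusted p = 0.0239), from 193, 265 and 183 to 70.8, 82 and 83 CPM. These microglial values rest on 65 UMIs in young and 36 in old mice, and the value of 193 on 5 UMIs. Both sets were without overlap, and the fold change was negative in all 9 classes that tested the gene. These classes come from the same mice, so their shared sign is no separate result. Kcnrg lies opposite the long noncoding gene Dleu2, so reads of the 2 strands may have been counted together.

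Kcnj13, an inward rectifier of epithelia, was lower in oligodendrocytes (-2.94 ± 0.54, adjusted p = 0.00162) on 46 UMIs in young and 18 in old mice. The young values were 0, 34.6 and 14.8 CPM and the old values 2.95, 2.62 and 3.13 CPM, which overlap. Its fold change was negative in all 6 classes that tested it, which again share their mice. The 5 choroid plexus markers summed to 3.3 to 11.3 CPM in young and 5.5 to 7.4 CPM in old ad libitum oligodendrocytes. Folr1 and Otx2 were at 0 in all of these mice, Ttr was at 0 to 1.92 CPM in young and 2.75 to 5.07 CPM in old mice, and Clic6 and Kl made up the rest. Their part in the result was not tested. Kcnj13 lies opposite Gigyf2.

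**Figure D5:**
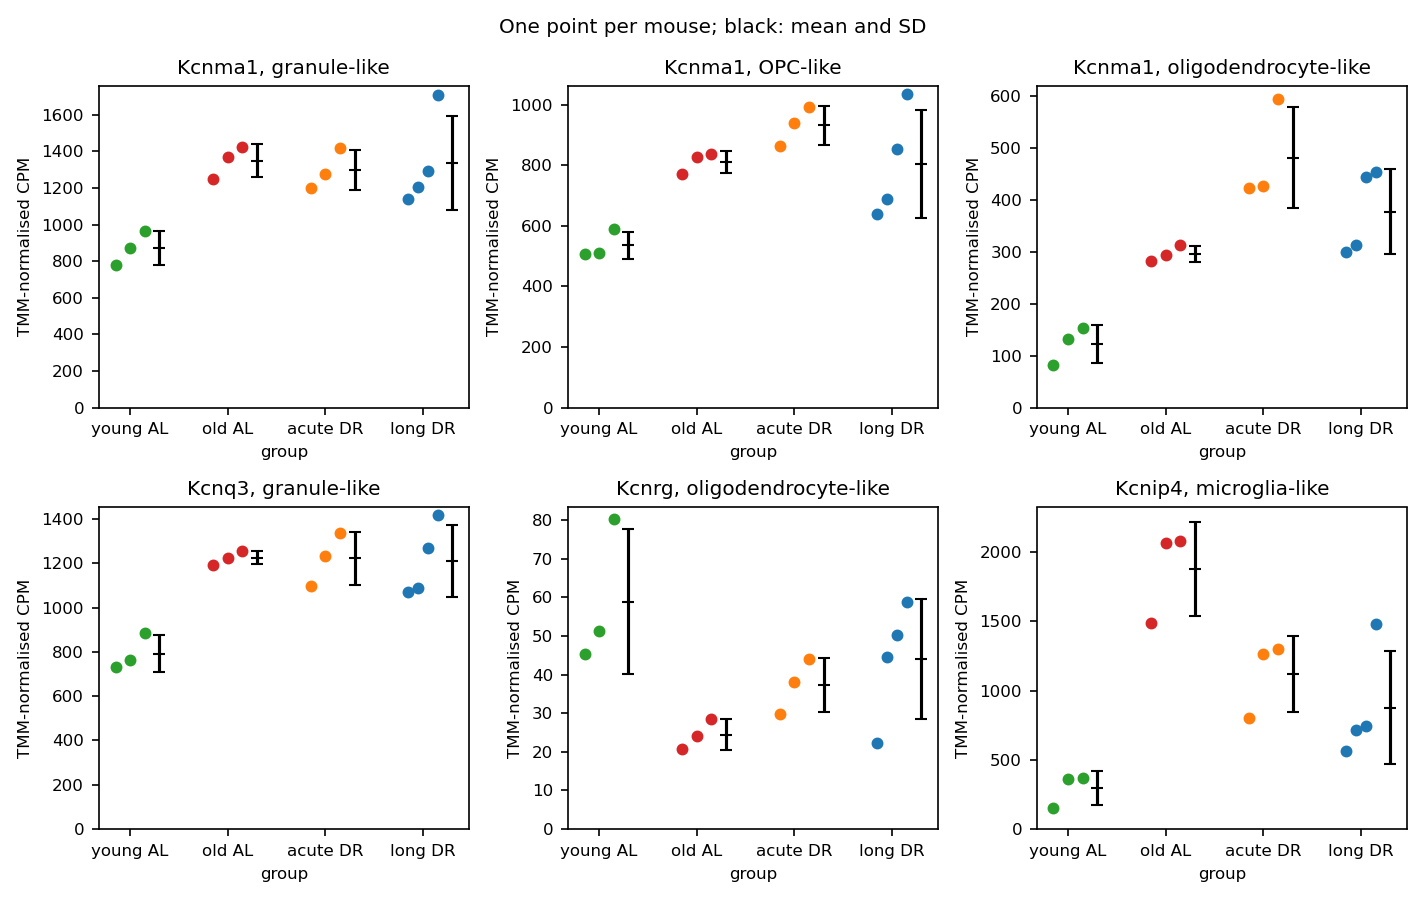
TMM-scaled CPM in every mouse by group, with mean ± SD, for Kcnma1 in granule neurons, OPCs and oligodendrocytes, Kcnq3 in granule neurons, Kcnrg in oligodendrocytes and Kcnip4 in microglia. Old ad libitum mice lie apart from young mice in all 6 panels, which show called pairs without overlap. Restricted old mice mostly lie nearer to old than to young mice for Kcnma1 and Kcnq3. For Kcnip4 (877 CPM long-term, 1119 CPM acute) and Kcnrg (43.9 and 37.3 CPM) the restricted means lie between young and old ad libitum means. The panels were picked for a difference of old ad libitum from young mice, so a place between them is no separate result. No member pair was called for restriction, or between its forms, in the edgeR fit described here.

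Kcnma1, Kcnq3, Kcnq5 and Kcnrg were called in more than 1 class. Sequences of the 250 bases before a RefSeq start are shown for one that rose and one that fell. The pair was chosen after its base composition was seen, so the difference is a description of these 2 windows. CpG pairs are in capitals, and both are from RefSeq (GRCm38.p6), 5′ to 3′ on the gene's strand. The first is chr1:21961943-21962192 (minus strand), directly before the downstream one of the RefSeq starts of Kcnq5 and so inside the longer gene model, and the second chr14:61607207-61607456 (plus strand), directly before Kcnrg.
Kcnq5: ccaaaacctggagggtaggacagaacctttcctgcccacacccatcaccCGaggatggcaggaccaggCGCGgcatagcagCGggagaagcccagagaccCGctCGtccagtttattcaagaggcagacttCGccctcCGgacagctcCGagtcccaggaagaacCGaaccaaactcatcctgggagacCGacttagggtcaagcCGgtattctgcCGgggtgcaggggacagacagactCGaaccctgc
Kcnrg: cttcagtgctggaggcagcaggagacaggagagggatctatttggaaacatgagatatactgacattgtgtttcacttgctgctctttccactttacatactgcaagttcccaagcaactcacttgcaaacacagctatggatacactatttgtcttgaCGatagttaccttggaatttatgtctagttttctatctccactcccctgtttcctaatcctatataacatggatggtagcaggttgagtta
The Kcnq5 window has 60.8% G or C and 14 CpG pairs, and the Kcnrg window 41.6% and 1 CpG pair. Among 32851 RefSeq windows of this length the medians were 52.4% and 6 CpG pairs. Neither window holds a GC box (GGGCGG, in 32.7% of all windows), a TATA box (TATAAA, 12.4%), a cAMP response element (TGACGTCA, 1.55%) or an E-box (CACGTG, 6.02%), searched on both strands. For Kcnma1, which rose in 3 classes, the window before its RefSeq start (chr14:24004206-24004455, minus strand) is not printed. It lies inside the longer gene model given above and overlaps an annotated untranslated region. That window has 79.2% G or C, 31 CpG pairs and 3 GC boxes, and none of the other motifs. The upstream start of Kcnq5 has its own window, chr1:21962651-21962900, with 44.4% G or C and 3 CpG pairs.

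Several members with a known role in 1 cell type had ageing differences that did not pass in the edgeR fit described here. Each is given in a class where it was abundant. Kcnc2 in inhibitory neurons was at 1992 ± 280 CPM in young and 2584 ± 142 CPM in old mice (log2 fold change 0.38 ± 0.14, adjusted p = 0.187), and the ranges of 1721 to 2280 and 2420 to 2670 CPM did not overlap. Kcnc1 in the same neurons was at 203 ± 28.9 and 204 ± 31.4 CPM. Kcnd2 in OPCs, at 4446 ± 572 CPM in young and 5760 ± 137 CPM in old mice, had an adjusted p of 0.0608 (0.37 ± 0.11). Kcnip4 in granule neurons, at 11515 ± 1785 and 15745 ± 508 CPM, had 0.0731 (0.45 ± 0.14). Both estimates were positive and stayed just outside the threshold of this fit. They come from different classes, so they do not show a joint change of the A-type pore and its calcium sensor. Other settings did call them: edgeR with a term for libraries numbered 1 called both, and DESeq2 called Kcnip4 in granule neurons but not Kcnd2 in OPCs.

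The G protein-gated genes differed little in granule neurons, where Kcnj6 was at 558 ± 63.9 and 622 ± 38.3 CPM (0.16 ± 0.10) and Kcnj3 at 715 ± 169 and 743 ± 31.4 CPM (0.06 ± 0.15). Among two-pore genes, Kcnk2 (TREK-type) in granule neurons was at 71.7 ± 5.99 CPM in young and 56.3 ± 7.61 CPM in old mice (-0.35 ± 0.11, adjusted p = 0.0827). Some other settings called Kcnk2 in granule neurons. These were DESeq2, edgeR with the gene length trend removed and edgeR with a term for libraries numbered 1. Kcnk1 (TWIK-type) was at 59.1 ± 5.09 and 57.8 ± 6.02 CPM in granule neurons. Astrocyte SK genes had opposite signs, with Kcnn3 at 135 ± 21.4 and 169 ± 8.13 CPM and Kcnn2 at 618 ± 45.3 and 527 ± 102 CPM, and neither passed (adjusted p = 0.349 and 0.689).

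Members of other families gave few or no calls with age. None of the 51 Kv1, 32 Kv3 or 42 Kcnh pairs was called in the edgeR fit described here. At an unadjusted p below 0.05 there were 5 (9.8%), 5 (15.6%) and 11 (26.2%) of them, beside 18.9% of all gene and class pairs. Other settings did call some. DESeq2 called Kcnab2 and Kcnh4 in granule and Kcnab1 in inhibitory neurons, and edgeR without the filter on low counts called Kcnc2 in OPCs, microglia and oligodendrocytes, Kcnh7 in microglia, Kcnh1 in oligodendrocytes and Kcnh8 in OPCs. Kcna1 in oligodendrocytes, where it was highest, had 202 ± 26.8 CPM in young and 191 ± 21.6 CPM in old mice (log2 fold change -0.06 ± 0.23). Kcnab1 in CA1 neurons had 1119 ± 129 and 1188 ± 164 CPM (0.09 ± 0.14). The adjusted p was 0.916 for the first and 0.769 for the second, which does not show that they are equal.

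The ageing change itself was compared between classes of the same mouse with limma. No member was called for granule against oligodendrocytes or granule against CA1 neurons, where 0.0724% and 0.047% of all genes were called. At an unadjusted p below 0.05 there were 5 of 44 and 10 of 58 members, beside 8.08% and 7.74% of all genes. The smallest adjusted p belonged to Kcnd3, whose difference of change was -0.56 ± 0.14 on the log2 scale (granule minus CA1, adjusted p = 0.224). So a call in granule neurons and none in CA1 neurons is not shown to be a difference between them. In CA1 neurons Kcnma1 (0.42 ± 0.12) and Kcnq3 (0.46 ± 0.13) had adjusted p = 0.123 each by edgeR, and both were called there by DESeq2 and by edgeR with a term for libraries numbered 1. Kcnd3 in CA1 neurons went from 52.9 ± 9.33 CPM in young to 108 ± 17.4 CPM in old mice, without overlap (1.06 ± 0.17, edgeR adjusted p = 0.11). It too was called there in both of those settings.

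Old restricted mice were compared with old mice fed ad libitum to ask what restriction alters. No member pair passed for long-term restriction or for acute restriction in the edgeR fit described here, where 0.0303% and 0.203% of all gene and class pairs were called. At an unadjusted p below 0.05 there were 31 and 39 of 461 member pairs, beside 4.84% and 5.07% of all pairs. DESeq2 called 1 pair in each (Kcnip3 in OPCs for long-term and Kcnt1 in astrocytes for acute restriction), and edgeR with a term for libraries numbered 1 called 2 for long-term restriction (Kcnip4 in microglia, Kcnrg in oligodendrocytes) and 3 for acute restriction (Kcnt1 in astrocytes, Kcnab1 and Kcnma1 in oligodendrocytes). These comparisons and the ageing comparison share the old ad libitum mice. The members with the smallest p are therefore given as values that did not pass in that first fit, though other settings called some of them.

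For long-term restriction, Kcnrg in oligodendrocytes was at 22.3, 50.2, 44.4 and 58.8 CPM, where old ad libitum mice had 20.6, 24.1 and 28.6 (log2 fold change 0.90 ± 0.23, adjusted p = 0.0848). Replicate 1 lay within the ad libitum range and the other 3 lay above it. Kcnip3 in OPCs was at 714, 1129, 1462 and 1112 CPM against 495, 516 and 601 CPM (1.04 ± 0.26, adjusted p = 0.389 by edgeR), without overlap, and this was the pair that DESeq2 called. Kcnip4 in microglia was at 567, 742, 1481 and 718 CPM against 1486, 2066 and 2083 CPM (-1.10 ± 0.31, adjusted p = 0.89). The sodium-activated gene Kcnt1 in astrocytes (0.92 ± 0.29) and the BK beta subunit Kcnmb4 in OPCs (0.49 ± 0.17) followed.

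For acute restriction, Kcnt1 in astrocytes was at 50.8, 34.7 and 52.6 CPM, where old ad libitum mice had 19.1, 16.8 and 7.82 CPM, the last from 2 UMIs (1.45 ± 0.30, adjusted p = 0.0919). This was the pair that DESeq2 called. Kcnma1 in oligodendrocytes was at 593, 422 and 427 CPM against 312, 293 and 282 CPM (0.68 ± 0.18, adjusted p = 0.0634), so that its values lay further from young mice than those of old ad libitum mice. Kcna2 was at 10.2, 10.6 and 9.63 CPM in CA1 neurons against 17.7, 19 and 16.4 CPM (-0.80 ± 0.20, adjusted p = 1), and in astrocytes at 41.1, 59.8 and 48.4 CPM against 73.5, 87 and 78.2 CPM (-0.68 ± 0.18, adjusted p = 0.292). Kcnk13 in astrocytes (-1.53 ± 0.44, adjusted p = 0.35) rests on 28 and 83 UMIs.

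Long-term and acute restriction did not differ in any member pair by edgeR or DESeq2, where edgeR called 0.0114% of all pairs. At an unadjusted p below 0.05 there were 26 of 461 member pairs, beside 3.12% of all pairs. The smallest p-values were in Cajal-Retzius cells, for Kcnab1 (-3.48 ± 0.84) and Kcnj3 (-3.30 ± 0.90), both with adjusted p = 0.571. There, 2 mice stood against 2, and replicate 2 of acute restriction gave 934 CPM of Kcnab1 where the other acute mouse gave 201 and the long-term mice 43.6 and 49.2. Kcnip4 in the same class (-1.54 ± 0.45) was at 20366 and 8390 CPM against 5127 and 4722 CPM. In oligodendrocytes Kcnk13 was at 303, 326, 458 and 434 CPM in long-term and 243, 300 and 293 CPM in acute restriction (0.44 ± 0.15, adjusted p = 0.44), and Kcnj3 in OPCs had a difference of -0.39 ± 0.13.

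A list of 40 further genes of channel complexes and potassium handling, such as Dpp10, Dlg2 and the sodium pump, was read in the same fits. With age 11 of 298 pairs were called (10 higher, 1 lower), again beside 1.56% of all pairs. These calls come from 1 edgeR fit, and this list was not refitted under the other settings used for members. Of the 18 member calls, 2 held with median UMIs per nucleus as covariate and 4 with the gene length trend removed. How far free RNA adds to these genes in glial classes was not tested. Dpp10, an auxiliary subunit of Kv4 channels, rose in granule neurons (1.20 ± 0.28), as did Pex5l (0.64 ± 0.14), a subunit of HCN channels. Dlg2, a scaffold that clusters Kv1 channels, rose in astrocytes (1.46 ± 0.26) and oligodendrocytes (0.55 ± 0.13), and Adam23 rose in both (0.90 ± 0.16 and 0.93 ± 0.19). Cntnap2, which places Kv1 channels beside nodes of Ranvier, rose in OPCs (1.03 ± 0.20). Fgf14 rose in astrocytes, and Adam22 in microglia. The sodium pump subunit Atp1b1 fell by 0.67 ± 0.20 on the log2 scale in oligodendrocytes. No pair of this list was called for either form of restriction.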

How the data were processed

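The deposited values were raw UMI counts per gene and barcode, made by the authors with Cell Ranger 4.0.0 on mm10, per the submitters' processing notes. How introns and strand were counted is not given in the sources used here. Of 105759 barcodes 105427 passed a minimum of 500 genes and a maximum of 5% mitochondrial UMIs. Scrublet was run library by library, and the nuclei scoring highest (0.8% for each 1000 nuclei of the library) were removed as doublets, 7386 in all. Nuclei were clustered with scanpy 1.11.5 and leidenalg 0.10.2 (2000 variable genes without Kcn genes, 30 components, resolution 1) and named from fixed markers. Libraries shared 1351 of 104066 distinct barcode sequences.

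Counts were summed per mouse and class (at least 20 nuclei) and tested with edgeR 4.0.16 (robust quasi-likelihood test, TMM, filterByExpr), Benjamini-Hochberg adjusted over all genes of a class. Class differences used all classes with mouse as a block, and differences of the ageing change limma 3.58.1. DESeq2 1.42.0 and other settings were alternatives. The fits were checked on simulated data. Nothing in the labels says that mice were housed or processed separately beyond 1 library each.

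Named genes were, per class, up to 4 members with a log2 margin of at least 1 over every other class and no overlap of mice with the next; the called pairs of each contrast, up to 25, filled to 5 by smallest p; and 21 genes always described. Some genes are not reported here or drawn in the figures, though counts of members include them. The members, lists and rules were chosen with earlier results of these data known.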

Additional observations from a re-analysis of the deposited data

How the results depend on the processing

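The counts of members that differed between classes, and the 18 ageing pairs with RLE size factors (15) or with doublets kept (16), stayed within 1.5 times. The ageing count was 39 with DESeq2, 33 without a filter on low counts, 54 with a replicate block, 60 with a term for libraries numbered 1, 3 with median UMIs per nucleus as covariate, 5 with the gene length trend removed and 10 in nuclei with at least 1000 genes. It was 63 without the libraries numbered 1, a setting chosen after seeing the data. Leaving out 1 library gave 1 to 31. The replicate block called 2 Kv1 pairs (Kcnab1 in inhibitory and Kcnab2 in granule neurons) and 5 Kcnh pairs (Kcnh7 in 3 classes, Kcnh1 in oligodendrocytes and Kcnh8 in OPCs), families with 0 calls as reported, and 11 pairs in 3 of the 6 classes with none, among them Kcnma1 and Kcnq3 in CA1 neurons. Without replicate 3 of long-term restriction Kcnab2 in granule neurons and Kcnh7 and Kcnc2 in oligodendrocytes were called with age, Kcnc2 also without its replicate 4, and without replicate 1 of the old ad libitum group Kcnh7 in microglia and Kcnh1 in oligodendrocytes. For restriction the block called Kcnip4 in microglia and Kcnrg and Kcnab1 in oligodendrocytes in both forms, Kcnj3 in oligodendrocytes in the long-term form, and Kcnt1 and Kcnk13 in astrocytes and Kcnq1 in oligodendrocytes in the acute form. The 0 for long-term restriction became 1 with DESeq2, 2 without the filter, 4 with the replicate block, 2 with the term, 1 with the length trend removed, 1 with at least 1000 genes, 2 without the libraries numbered 1 and 0 to 2 on leaving out 1 library. The 0 for acute restriction became 1, 3, 6, 3 and 1 under the first 5 of these, 1 without the libraries numbered 1 and 0 to 14 on leaving out 1 library. The 0 between the 2 forms of restriction became 3 without the filter, 1 without the libraries numbered 1 and 0 to 13 on leaving out 1 library. The values of 14 and 13 lay in Cajal-Retzius cells without replicate 3 of acute restriction, where the lone library of that group is assumed to vary like the others. The ageing difference of granule against oligodendrocytes gave 1 with the term for libraries numbered 1 and 0 on leaving out any library, and that against CA1 neurons 0 to 1. The cause was not tested. The numbers in the titles do not pair the mice by any label. Libraries numbered 1 deviated together in granule neurons (correlations 0.37 to 0.77), and the other numbers did not all exceed 0.1. The term for libraries numbered 1 could not be fitted in Cajal-Retzius cells. The length trend removed called Kcnip4 in microglia (long-term) and Kcnma1 in oligodendrocytes (acute). Small classes and members with few UMIs limit what could be seen.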
